A study of Mus musculus with 10 samples.

Results

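The genes described here encode actins, tropomyosins, myosin II subunits, and the proteins that decorate, crosslink and anchor actin filaments, together with 3 transcription factors that control many of them. They were taken from a list of 41 names and followed from mouse fibroblasts through induced reprogramming to embryonic stem cells. Of the 41 names, 40 matched a gene symbol in the tables, which hold 45706 genes. The remaining name, Transgelin, is the protein made by Tagln, which is itself a member. All 40 genes passed the filter on low counts, and each was named whatever its values. By role they comprise 6 actins, 4 tropomyosins, 6 genes of myosin II, 7 thin filament genes, 12 crosslinking and adhesion genes, 2 intermediate filament genes and 3 transcription factors. They were also split into 12 muscle-type members, whose high expression is best known from muscle and myofibroblasts, and 28 that many cell types express.

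Actin filaments and myosin II generate the tension with which a fibroblast spreads, grips its substrate and pulls on it. Tropomyosins, calponins and caldesmon lie along the filament and set which partners can bind it, while filamins, alpha-actinins and focal adhesion proteins such as vinculin, zyxin and talin crosslink filaments and tie them to integrins. Serum response factor (Srf) drives many of these genes through a DNA element called the CArG box. Its cofactors Mkl1 and Mkl2 bind unpolymerised actin and reach the nucleus when actin is assembled into filaments. Fibroblasts in culture carry thick stress fibres, and pluripotent cells are known for compact epithelial colonies.

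RNA was measured by poly(A) RNA sequencing in 10 libraries, 2 from each of 5 groups. The fibroblasts came from C57BL/6 x 129 mouse embryos carrying a doxycycline-inducible cassette for Oct4, Klf4, Sox2 and Myc in Col1a1 and the transactivator M2rtTA in Rosa26. The MEF group was uninduced fibroblasts of this genotype in fibroblast medium without doxycycline. The day 3, day 6 and day 9 groups (D3, D6, D9) received doxycycline at 1 µg/ml and ascorbic acid at 50 µg/ml in stem cell medium, so induction, medium and ascorbic acid cannot be told apart in a comparison with MEF. Day 3 was the whole culture, whereas day 6 and day 9 were sorted for SSEA1, a surface carbohydrate of cells moving toward pluripotency, so time and selection cannot be told apart between day 3 and day 6. The ESC group was the V6.5 line, grown on irradiated feeder cells and not sorted. The design calls the replicates biological, but no label ties a library to a separate culture or embryo. The p-values therefore measure the spread between these libraries, which may be technical.

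The libraries held 29585876 to 38275024 estimated reads. The 15 fibroblast markers, including Col1a1, Thy1 and Pdgfra, summed to 11064 and 11555 TPM (a level scaled by transcript length and to the same total in every library) in MEF. The sums were 669 and 693 TPM on day 3, 37.7 and 39.2 on day 6, 17.8 and 19.4 on day 9, and 975 and 1042 in ESC. The 8 pluripotency markers, such as Nanog and Zfp42, summed to 0.598 and 0.821 TPM in MEF, 108 and 109 TPM on day 9 and 2603 and 2631 TPM in ESC. Xist, transcribed from the inactive X chromosome of female cells, was at 0.110 ± 0.092 TPM in MEF (SD, n = 2 here and below), between 152 and 181 TPM on average on days 3 to 9, and at 0.937 ± 0.041 TPM in ESC. The Y-linked gene Ddx3y ran the other way, at 11.1 ± 0.39 TPM in MEF, 0.0103 ± 0.0066 TPM on day 3 and 3.39 ± 0.43 TPM in ESC. These sex-linked genes thus differed between the uninduced and the induced libraries, which therefore cannot be read as 1 culture before and after induction, and the sex of the cells cannot be told apart from induction in the comparisons with MEF.

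Sequences that match the CArG box are shown first, because Srf is itself a member. In the 250 bases before the annotated start, as given in the RefSeq promoter table for GRCm38.p6, 35 of the 40 members had a sequence. A CArG box, a run of A and T between CC and GG that reads as the same pattern on both strands, was found before 8 of these 35 genes (22.9%). One was held by 1.62% of all 27025 genes so listed and by 1.47% of all 32851 windows. Only exact matches were scored, and 5 members had no sequence to search. Boxes with a mismatch or outside these 250 bases were not looked for, so a member not shown may still hold one. Below, each box is in capitals with 20 bases on either side, written 5′ to 3′ on the strand of the gene.
Acta1, chr8:123894819-123894868, minus strand: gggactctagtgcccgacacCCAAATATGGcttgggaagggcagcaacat
Actc1, chr2:114052893-114052942, minus strand: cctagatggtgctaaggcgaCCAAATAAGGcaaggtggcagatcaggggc
Actg1, chr11:120348556-120348605, minus strand: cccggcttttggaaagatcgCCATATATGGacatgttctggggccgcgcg
Myl9, chr2:156775283-156775332, plus strand: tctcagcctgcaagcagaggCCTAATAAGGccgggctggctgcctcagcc
Cnn2, chr10:79988524-79988573, plus strand: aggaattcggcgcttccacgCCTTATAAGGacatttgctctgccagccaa
Vcl, chr14:20929151-20929200, plus strand: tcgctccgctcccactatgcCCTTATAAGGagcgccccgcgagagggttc
Srf, chr17:46556195-46556264, minus strand: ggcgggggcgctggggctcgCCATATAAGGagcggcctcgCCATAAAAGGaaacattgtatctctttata
The first box of each gene began 47 bases (Actc1) to 227 bases (Vcl) before the start, and Srf held 2 boxes, 82 and 62 bases before its own. No exon of GENCODE M21 overlapped these 7 stretches. That of Actc1 lies in an intron of another Actc1 transcript and within A530058N18Rik, that of Acta1 within the predicted gene Gm20388 and that of Srf within Gm26904. The eighth gene, Myl6, held its box before a second start inside the gene. A match describes these letters only, and binding at them was not measured here.

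Summed, the members went down at each stage from MEF to day 9 and stood higher in ESC, and single members changed by very different amounts. Their summed share of all TPM was 2.45% and 2.40% in the MEF libraries, 1.70% and 1.76% on day 3, 0.991% and 0.986% on day 6, 0.839% and 0.830% on day 9, and 1.05% and 1.02% in ESC. The 12 muscle-type members alone went from 0.367% and 0.362% in MEF to 0.0125% and 0.0133% on day 9, and stood at 0.0565% and 0.0601% in ESC. No library of any group overlapped another group in either sum. In estimated reads, which are not scaled by length, the members took 3.81% and 3.83% of each MEF library, 1.11% and 1.12% on day 9 and 1.46% and 1.48% in ESC, and the groups were again apart.

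The level of some members in TPM rests on very short transcripts, to which a few reads give a high TPM. Transcripts with an effective length under 100 bases held TPM of 9 members, and for 8 of them 30% or more of it in some group. In MEF the part was 79.2% for Cnn3, 71.9% for Actb, 63.2% for Tln1, 60.4% for Actg1, 55.0% for Myh10, 47.7% for Tpm2, 39.5% for Tpm3, 35.4% for Myl9 and 3.44% for Cald1. Levels of these genes are therefore compared across groups, and their rank among other genes depends on these transcripts.

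For members at 10 TPM or more, the median coefficient of variation between replicates was 2.52% and the highest was 15.2% (Pxn on day 9). In bulk RNA, fewer cells that express a gene and less of its RNA per cell cannot be told apart.

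**Figure D1:**
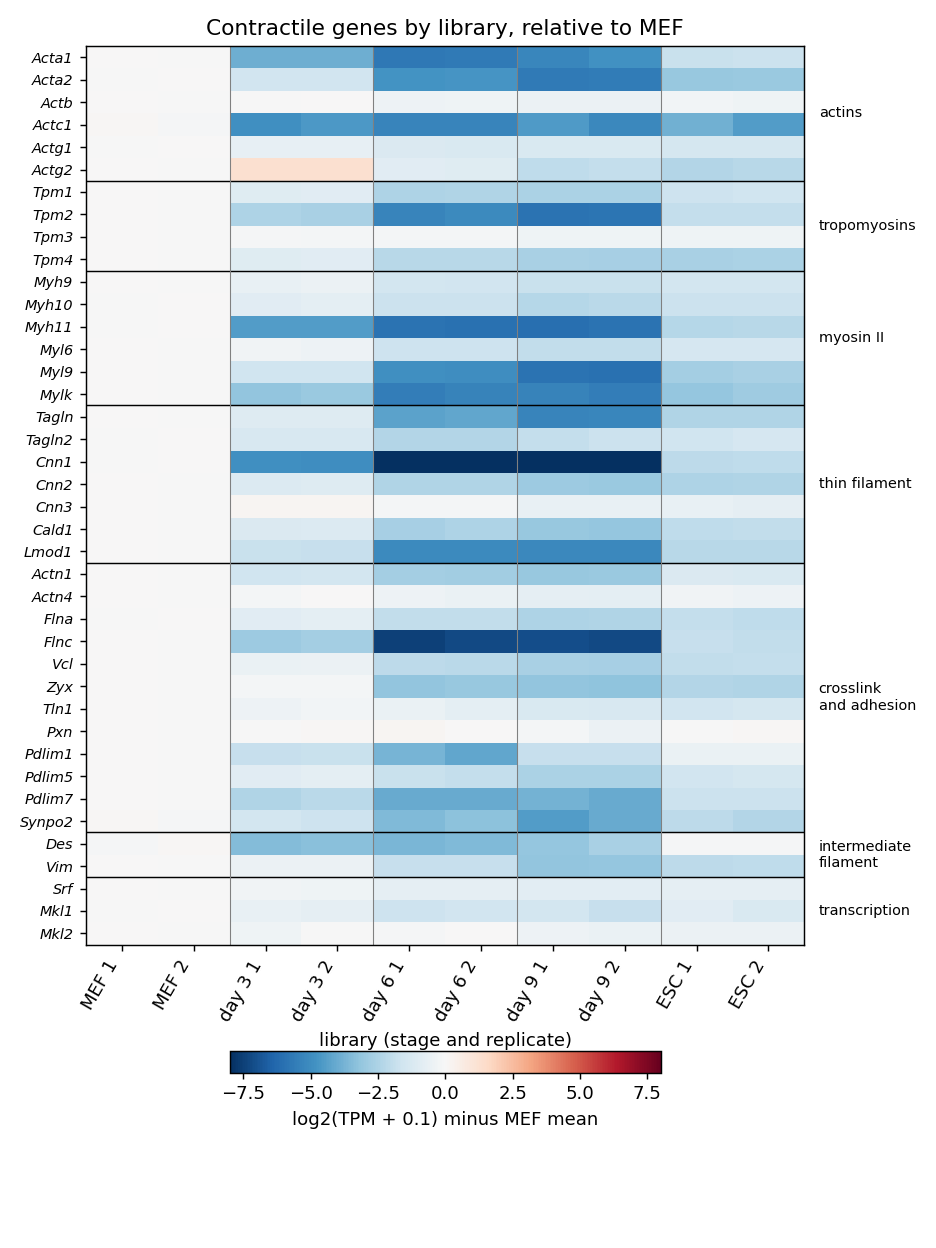
Each row is 1 of the 40 members, grouped by role, and each column 1 library. Colour gives log2(TPM + 0.1) minus the MEF mean of that gene, with blue lower and red higher than MEF. The darkest rows on days 6 and 9 are Cnn1 and Flnc, Actg2 is red on day 3, and many blue rows are paler in the ESC libraries.

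Calls of change were made gene by gene, at a Benjamini-Hochberg adjusted p under 0.05 over 20165 genes in edgeR's quasi-likelihood test and a log2 fold change of at least 1. Between MEF and day 9, 33 members fell and 0 rose, where 19.8% of all genes tested fell and 24.1% rose. The median log2 fold change was -2.52 over the 40 members, -5.61 over the 12 muscle-type members and -2.03 over the other 28, against 0.19 over all genes. All 12 muscle-type members and 21 of the other 28 were among those called. By role, the calls covered 5 of 6 actins, 3 of 4 tropomyosins, 6 of 6 myosin II genes, 6 of 7 thin filament genes, 10 of 12 crosslinking and adhesion genes, both intermediate filament genes and 1 of 3 transcription factors. The 7 members not called were Actb, Tpm3, Cnn3, Actn4, Pxn, Srf and Mkl2, whose log2 fold changes lay between -0.11 (Pxn) and -0.77 (Srf).

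The loss came in steps. From MEF to day 3, 20 members fell and 1 rose, against 14.5% and 14.6% of all genes, and 11 of the 12 muscle-type members were among those that fell. From day 3 to day 6, 27 fell and 0 rose, against 10.2% and 9.26% of all genes, with a median log2 fold change of -1.39 over the members and 0.03 over all genes. That median was -1.35 with Actc1, which had no read on day 6, set to the bound that 3 reads allow. From day 6 to day 9, both sorted for SSEA1, 3 members fell (Myl9, Synpo2 and Vim) and 2 rose (Pdlim1 and Actc1), against 2.68% and 5.18% of all genes. The members' median in that step was -0.18. Scaling by library size alone, without the TMM factors, raised the median of all genes between MEF and day 3 from 0.08 to 0.285, and 16 members then fell in that step.

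Of the actins, Actb and Actg1 encode the cytoplasmic beta and gamma forms found in every cell, Acta2 the smooth muscle alpha form of stress fibres, Actg2 the smooth muscle gamma form, and Acta1 and Actc1 the skeletal and cardiac alpha forms. Acta2 was at 1552 and 1553 TPM in MEF, 539 and 541 on day 3, 55.4 and 58.4 on day 6, 30.6 and 32.7 on day 9, and 192 and 203 in ESC. All 5 groups were separated, and day 9 was the lowest. The log2 fold change from MEF to day 9 was -5.54 (SE 0.05, adjusted p = 2.3e-18, edgeR).

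Actg2 was the 1 member that rose from MEF to day 3. It was at 227.4 and 226.5 TPM in MEF, 548.7 and 558.5 on day 3, 121.8 and 114.0 on day 6, 56.3 and 60.4 on day 9, and 44.4 and 48.3 in ESC. Both day 3 libraries stood above every other library, while Acta2 in the same 2 libraries stood at 34.8% of its MEF mean. The log2 fold change on day 3 was 1.28 (SE 0.04, adjusted p = 4.3e-12, edgeR), it was followed by -2.22 (SE 0.05) from day 3 to day 6, and no alternative setting that was run ended either call. The coding sequences of the muscle actins are nearly identical, and how the reads of 50 bases were divided among them was not tested.

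Acta1 stood at 18.6 and 18.4 TPM in MEF, 1.16 and 1.13 on day 3, 0.252 and 0.263 on day 6, 0.399 and 0.536 on day 9, and 5.21 and 5.62 in ESC. Its lowest group was therefore day 6, not day 9, at 22 and 22 estimated reads against 34 and 58. The difference from day 6 to day 9, 0.98 on the log2 scale (SE 0.22), was not called. Actc1 had 283 and 313 estimated reads in the MEF libraries, 3 and 5 on day 3, 0 and 0 on day 6, 6 and 1 on day 9, and 14 and 7 in ESC. Its call as higher on day 9 than on day 6 rests on those 7 reads, an at least 2.24-fold higher share against a floor of 3 reads over both day 6 libraries. That call was lost in 8 of the alternative settings, among them the fits without either MEF library, either day 6 library or day 9 replicate 1.

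The cytoplasmic actins changed less. Actb had the highest TPM of the members, at 5577 and 5356 TPM in MEF, 5440 and 5629 on day 3, 4131 and 4220 on day 6, 3984 and 3919 on day 9, and 4606 and 4241 in ESC. The MEF and day 3 values overlapped, and the log2 fold change from MEF to day 9 was -0.51 (SE 0.03), below the fold minimum. Without the short transcripts Actb was at 1537 ± 8.5 TPM in MEF, below Vim and Acta2, at 1223 ± 105 TPM on day 3 and at 959 ± 12 TPM on day 9. Actg1 fell from a mean of 3132 TPM in MEF to 1343 TPM on day 9, a log2 fold change of -1.12 (SE 0.03, adjusted p = 5.8e-14, edgeR) that became -0.83 and was no longer called with library size scaling.

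The 4 muscle actins together made up 17.3% ± 0.23 of all actin TPM in MEF, 12.7% ± 0.19 on day 3, 3.07% ± 0.072 on day 6, 1.68% ± 0.10 on day 9 and 4.25% ± 0.35 in ESC. Actb alone went from 52.6% ± 0.80 in MEF to 73.4% ± 0.0064 on day 9. These shares depend on the unit. In estimated reads the muscle actins held 43.8% ± 0.021 in MEF, 34.4% ± 0.50 on day 3, 9.20% ± 0.17 on day 6, 5.21% ± 0.20 on day 9 and 16.4% ± 0.65 in ESC. Actb then went from 21.3% ± 0.11 in MEF to 45.9% ± 0.18 on day 9, and Actg1, with more reads than Actb at both stages, from 34.8% ± 0.087 to 48.8% ± 0.015. In both units the muscle actins fell and Actb rose as a share between MEF and day 9, and the sizes of the shares differed.

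**Figure D2:**
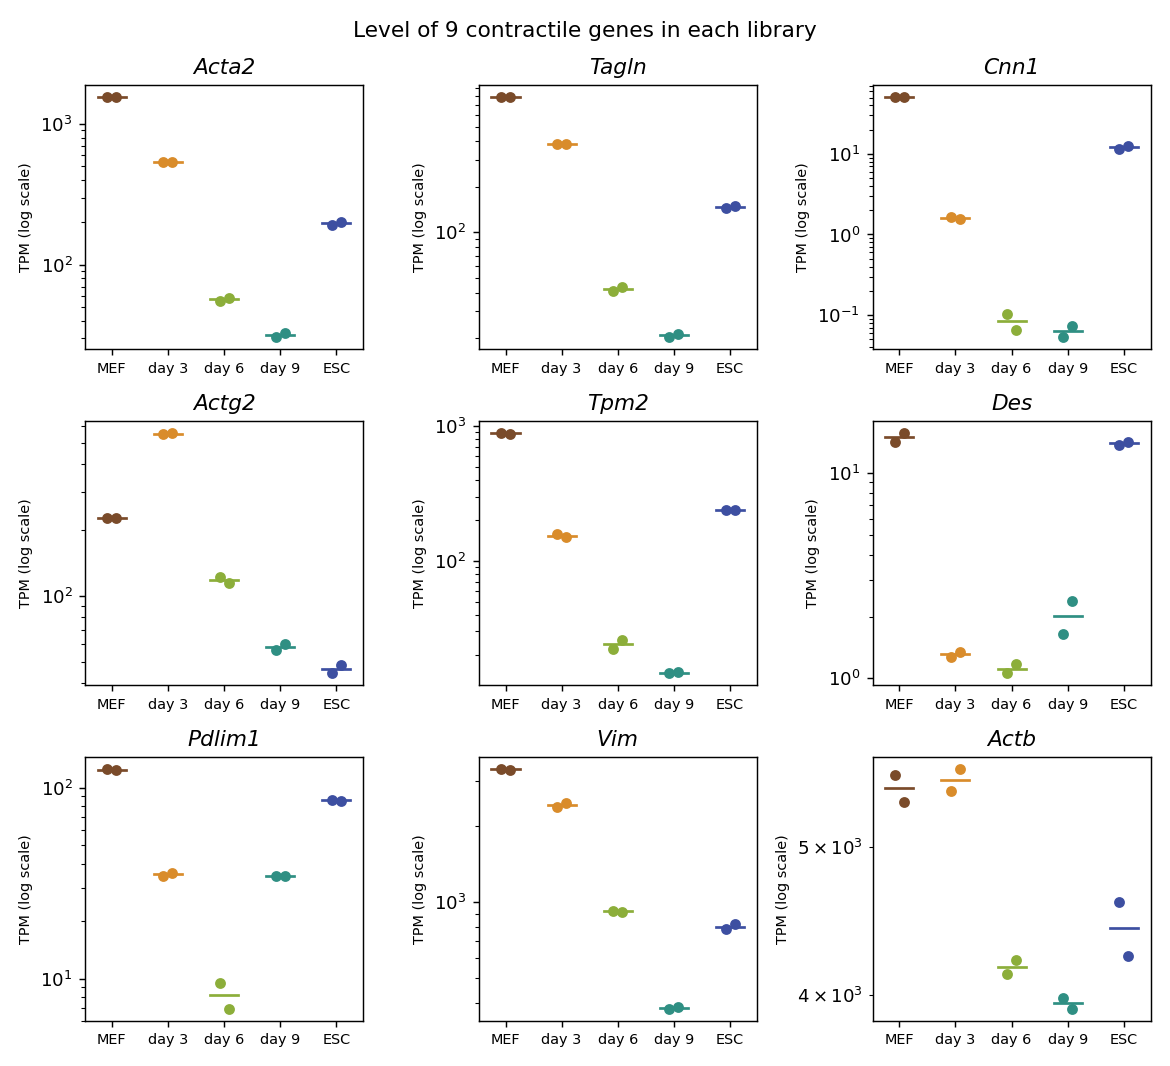
Points are the 2 libraries of each group and the bar is their mean, in TPM on a log axis that differs between panels. Acta2, Tagln, Tpm2 and Vim are lowest on day 9, Actg2 peaks on day 3, Des and Pdlim1 are lowest on day 6, and Actb spans a range of 3919 to 5629 TPM.

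Tropomyosins wrap along the actin filament, and their 4 genes parted in the same way. Tpm2, the gene of beta tropomyosin, was at 890 and 877 TPM in MEF, 159 and 149 on day 3, 22.4 and 25.8 on day 6, 14.8 and 15.0 on day 9, and 238 and 240 in ESC. No group overlapped another, and the log2 fold change from MEF to day 9 was -5.51 (SE 0.06, adjusted p = 7e-18, edgeR). Tpm1 and Tpm4 fell less, from 727 to 123 TPM and from 687 to 112 TPM on average, with log2 fold changes of -2.46 and -2.48 (SE 0.03 each). Tpm3, which makes short tropomyosins in most cells, was at 432 and 401 TPM in MEF and 329 and 322 TPM on day 9. Its log2 fold change of -0.12 (SE 0.03) had no stable sign, since it was 0.17 with library size scaling. Within the family, Tpm3 went from 15.3% ± 0.41 of tropomyosin TPM in MEF to 56.5% ± 0.056 on day 9, and Tpm2 from 32.6% ± 0.49 to 2.58% ± 0.065. In ESC the 2 stood at 35.8% ± 0.46 and 26.0% ± 0.20. In estimated reads Tpm3 went from 10.9% ± 0.046 to 41.9% ± 0.36 and stood at 29.4% ± 0.63 in ESC, and Tpm2 went from 13.5% ± 0.19 to 1.24% ± 0.032 and stood at 11.6% ± 0.21.

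Myosin II is the motor of the stress fibre, built from heavy chains (Myh9 and Myh10 in nonmuscle cells, Myh11 in smooth muscle), light chains (Myl6, Myl9) and activated by the kinase Mylk. Myl9, the regulatory light chain, was at 968 and 924 TPM in MEF, 309 and 311 on day 3, 31.1 and 30.4 on day 6, 15.7 and 15.2 on day 9, and 141 and 158 in ESC. All groups were apart, and the fall to day 9 was -5.94 on the log2 scale (SE 0.07, adjusted p = 1.1e-17, edgeR). The further fall from day 6 to day 9, -1.05 (SE 0.08), was near the fold minimum. It was not called in 4 alternatives (limma on either log2 TPM scale, the length offset, and the fit without day 9 replicate 1), where it was as small as -0.90. Myh11 was at 6.77 and 6.85 TPM in MEF but only 0.215 and 0.217 TPM on day 3, and its 2 libraries on day 9 held 2 and 10 estimated reads. Mylk was at 7.07 and 6.66 TPM in MEF and 0.0726 and 0.0516 TPM on day 9. For both genes the values of day 6 and day 9 overlapped.

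The nonmuscle chains went down by less. Myh9 was at 160 ± 6.9 TPM in MEF and 46.5 ± 0.83 TPM on day 9, a log2 fold change of -1.72 (SE 0.03). Myh10 was at 174 ± 4.8 and 37.0 ± 2.7 TPM, with -2.16 (SE 0.04). Myl6, the essential light chain, was at 1064 ± 7.1 and 272 ± 4.6 TPM, with -1.90 (SE 0.04). Myh9 held 46.9% ± 1.8 of heavy chain TPM in MEF and 55.7% ± 1.3 on day 9, and 77.3% ± 0.41 and 84.1% ± 0.097 of their estimated reads.

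Among the thin filament genes, transgelins and calponins are small actin-binding proteins, caldesmon (Cald1) blocks myosin from the filament, and leiomodin (Lmod1) nucleates filaments in smooth muscle. Cnn1, the smooth muscle calponin, had the largest fall of the members from MEF to day 9. It was at 50.6 and 50.9 TPM in MEF, 1.63 and 1.56 on day 3, 0.103 and 0.0658 on day 6, 0.0531 and 0.0724 on day 9, and 11.7 and 12.6 in ESC. Day 6 and day 9 overlapped, and at both stages 8 to 16 estimated reads lay behind each value. The log2 fold change from MEF to day 9 was -9.54 (SE 0.11, adjusted p = 1.1e-17, edgeR).

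Tagln was at 788.4 and 787.7 TPM in MEF, 387 and 383 on day 3, 41.2 and 43.7 on day 6, 20.2 and 21.4 on day 9, and 146 and 149 in ESC. Its call on day 3, -1.06 (SE 0.04), lay near the fold minimum and was lost with library size scaling (-0.86). Its broadly expressed relative Tagln2 was lowest on day 6, at 50.5 and 50.3 TPM, and stood at 69.9 and 78.3 TPM on day 9. The share of Tagln in the summed TPM of the 2 transgelins was 75.4% ± 0.25 in MEF, 78.8% ± 0.15 on day 3, 45.7% ± 1.1 on day 6, 21.9% ± 0.74 on day 9 and 61.5% ± 2.5 in ESC. In estimated reads it was 82.2% ± 0.20 in MEF, 29.1% ± 0.030 on day 9 and 71.4% ± 0.0029 in ESC. Among the calponins, Cnn3 held 77.2% ± 0.27 of their TPM in MEF and 95.3% ± 0.090 on day 9, and 35.9% ± 0.38 and 77.5% ± 0.053 of their estimated reads. Cnn3 itself stayed between 757 and 1387 TPM in all 10 libraries, with its highest group on day 3. Cnn2 fell from 311 ± 7.7 TPM in MEF to 40.6 ± 0.72 TPM on day 9, Cald1 from 413 ± 14 to 49.7 ± 0.69 TPM and Lmod1 from 11.5 ± 0.54 to 0.224 ± 0.0053 TPM.

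**Figure D3:**
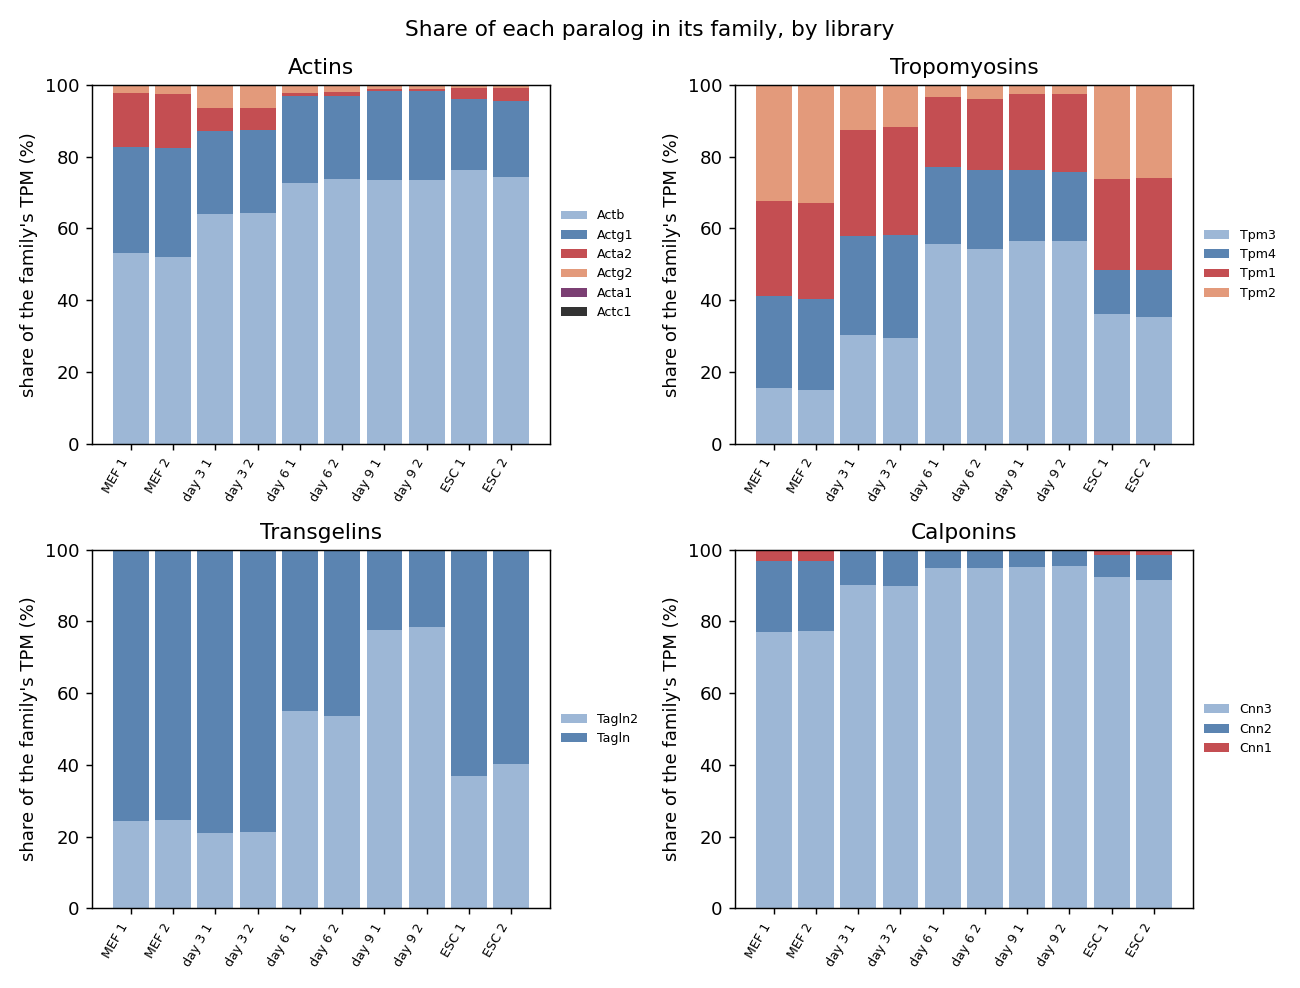
Stacked bars give the share of each paralog in the summed TPM of its family (axis 0 to 100%) in each of the 10 libraries. Actb, Tpm3, Tagln2 and Cnn3 take a larger share on days 6 and 9 than in MEF, and Tpm2 and Tagln regain share in ESC.

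Crosslinkers and adhesion proteins formed the largest role, and its log2 fold changes from MEF to day 9 ran from -8.65 (Flnc) to -0.11 (Pxn). Flnc, the muscle filamin, was at 22.7 and 21.3 TPM in MEF, 2.91 and 3.23 on day 3, 0.0234 and 0.0483 on day 6, 0.0585 and 0.0468 on day 9, and 6.02 and 5.59 in ESC. Day 6 and day 9 overlapped, and the change of -8.65 from MEF to day 9 had an SE of 0.10 (adjusted p = 1.1e-17, edgeR). Flna, its widely expressed relative and the X-linked member, was at 1116 and 1118 TPM in MEF, 587 and 636 on day 3, and 202 and 208 on day 9. The day 3 fall of Flna, -1.01 (SE 0.03), sat on the fold minimum and was lost in 5 alternatives, 1 of them the fit without day 3 replicate 1.

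Zyx, which gathers at strained stress fibres, kept its level for longer. It was at 97.1 and 90.4 TPM in MEF, 83.7 and 82.5 on day 3, 10.4 and 11.6 on day 6, 10.3 and 10.2 on day 9, and 18.1 and 17.5 in ESC. Nearly all of its loss lay between day 3 and day 6, at -2.91 on the log2 scale (SE 0.05, adjusted p = 8e-15, edgeR) after -0.19 (SE 0.04) in the first step. Vcl, which links talin to actin, had the same order of steps, -0.53 (SE 0.03) and then -1.62 (SE 0.03).

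Pdlim1, a scaffold that holds kinases at alpha-actinin, was the clearest exception to the order of stages. It was at 126 and 123 TPM in MEF, 34.6 and 35.8 on day 3, 9.45 and 6.94 on day 6, 34.5 and 34.6 on day 9, and 86.0 and 85.5 in ESC. Day 3 and day 9 did not differ beyond their spread, and day 6 lay below both. The rise from day 6 to day 9 was 2.18 on the log2 scale (SE 0.07, adjusted p = 4e-11, edgeR). The related Pdlim7 was at 6.86 TPM in both day 6 libraries and at 7.87 and 6.69 TPM on day 9, and Pdlim5 was at 8.51 ± 0.51 and then 5.31 ± 0.078 TPM.

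The alpha-actinins, which crosslink antiparallel filaments, parted like the actins. Actn1 fell from 142 ± 6.6 TPM in MEF to 18.0 ± 0.65 TPM on day 9 (log2 fold change -2.82, SE 0.04), and Actn4 from 288 ± 7.3 to 173 ± 3.7 TPM (-0.65, SE 0.03, not called). The share of Actn1 in the pair was 33.0% ± 0.46 in MEF, 9.41% ± 0.49 on day 9 and 21.5% ± 0.046 in ESC. In estimated reads these were 44.4% ± 0.72, 15.0% ± 0.79 and 30.4% ± 0.52. Tln1, the talin that activates integrins, fell from 279 ± 2.9 to 116 ± 1.8 TPM, at -1.22 (SE 0.03) on the log2 scale, a call lost with library size scaling (-0.93). Pxn, the adhesion scaffold paxillin, was between 16.1 and 24.4 TPM in every library, and 4 of its 5 group means lay within 22.3 to 23.6 TPM. Synpo2, a partner of filamin and alpha-actinin in muscle, was at 3.31 and 2.92 TPM in MEF and 0.0445 and 0.0973 TPM on day 9. Its change from day 6 to day 9, -1.13 (SE 0.25, adjusted p = 0.0024, edgeR), was not called in 3 alternatives (limma on either log2 TPM scale and the fit without day 6 replicate 2), where it was as small as -0.17.

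The 2 intermediate filament genes took different paths. Vim, the vimentin of mesenchymal cells, was at 3369 and 3323 TPM in MEF, 2373 and 2470 on day 3, 925 and 917 on day 6, 379 and 386 on day 9, and 783 and 817 in ESC. It was still falling between day 6 and day 9, by 1.19 on the log2 scale (SE 0.03, adjusted p = 3.2e-12, edgeR). Des, the desmin of muscle, was at 14.1 and 15.7 TPM in MEF, 1.27 and 1.35 on day 3, 1.06 and 1.17 on day 6, 1.65 and 2.38 on day 9, and 13.7 and 14.2 in ESC. Its ESC and MEF values overlapped, and every induced library lay below 2.39 TPM.

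Of the 3 transcription factors, Mkl1 was called between MEF and day 9 and Srf and Mkl2 were not. Srf was at 15.7 and 14.6 TPM in MEF, 12.3 and 12.1 on day 3, 9.11 and 9.12 on day 6, 8.50 and 8.45 on day 9, and 9.16 and 8.98 in ESC. Day 9 was the lowest group in TPM, with ESC and day 6 overlapping above it. The log2 fold change from MEF to day 9 was -0.77 (SE 0.04, adjusted p = 2.6e-10, edgeR), below the fold minimum. In the same fit that from MEF to ESC was -0.82 (SE 0.04), and ESC differed from day 9 by only -0.05 (SE 0.04). Mkl1 was at 8.76 and 9.23 TPM in MEF and 3.26 and 2.49 TPM on day 9, a log2 fold change of -1.63 (SE 0.06, adjusted p = 4e-12, edgeR). Mkl2 was at 2.90 and 2.89 TPM in MEF and 2.12 and 1.93 TPM on day 9. Of the 8 genes with a CArG box before their start, Srf was not called between MEF and day 9 and the other 7 fell. Their log2 fold changes ran from -1.12 (Actg1) to -6.59 (Actc1). In the same comparison 33 of all 40 members fell, and 19.8% of all genes tested. Whether a box goes with a fall was not tested. The box was thus found before members with large and with small changes.

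The ESC libraries did not continue the downward path. These cultures were unsorted and grown on feeder cells, whereas day 9 was sorted for SSEA1. Doxycycline and ascorbic acid are stated for day 9 and not for ESC. Xist was at 152 ± 5.3 TPM on day 9 and 0.937 ± 0.041 TPM in ESC. Cell type, sorting, these additions, the sex of the cells and RNA from feeder cells therefore cannot be told apart in this comparison. From day 9 to ESC, 15 members were higher and 0 lower, against 18.6% and 14.3% of all genes, and 10 of the 12 muscle-type members were among the 15. The median log2 difference was 0.70 over the members, 3.21 over the muscle-type members and 0 over all genes. The largest were Cnn1 at 7.40 (SE 0.13), Myh11 at 6.70 (SE 0.19) and Flnc at 6.65 (SE 0.11), with adjusted p of 2.5e-15, 3.6e-13 and 1.3e-15 in edgeR. Mylk followed at 3.72 (SE 0.16) and Tpm2 at 3.56 (SE 0.06). Acta1, Synpo2, Lmod1, Myl9, Des, Tagln and Acta2 lay between 2.49 (Acta2) and 3.35 (Acta1). The calls of Mylk and Synpo2 were lost with limma on log2(TPM + 1). The 2 muscle-type members not called were Actc1, at 1.53 (SE 0.68, adjusted p = 0.06, edgeR), and Actg2, at -0.47 (SE 0.05). By the group mean in TPM, day 9 was the lowest of the 5 groups for 29 of the 40 members and for 18.8% of all genes, and ESC was the lowest for 4 members and 20.4% of all genes. Among those 29, the day 9 libraries of Tpm3, Tpm4, Myh11, Mylk, Cnn1, Mkl1 and Mkl2 overlapped those of the next lowest group. In TMM-scaled CPM, day 9 was the lowest for 21 members and 13.7% of all genes, and ESC for 9 members and 24.7% of all genes.

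ESC nevertheless stayed below MEF, with 30 members lower and 0 higher, against 20.6% and 25.5% of all genes. The 10 members not called were Actb, Tpm3, Cnn3, Actn4, Pxn, Pdlim1, Des, Srf, Mkl1 and Mkl2. Acta2 stood at -3.06 (SE 0.05), Tagln at -2.49 (SE 0.04) and Vim at -2.16 (SE 0.03). Des stood at -0.52 (SE 0.06) and Pdlim1 at -0.61 (SE 0.05), the latter with ESC replicates at 86.0 and 85.5 TPM against 126 and 123 in MEF.

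The unsorted ESC cultures also held fibroblast markers. The 15 markers summed to 8.91% of their MEF level in ESC and 0.165% on day 9. Single markers in ESC ranged from 1.17% (Lum) to 14.8% (Thy1) of MEF, with a median of 8.62%, and 13 of 15 were at 1 TPM or more there, compared with 7 of 15 on day 9, where Lum was listed at 0 in both libraries. The members in ESC had a median of 29.7% of MEF, from 3.18% (Actc1) to 102.7% (Pxn). In 39 of 40 members this was above the share of the fibroblast sum, and in 37 of 40, including 10 of the 12 muscle-type members, it was above the highest single fibroblast marker. Those not above it were Actc1, Acta2 (12.7%) and Mylk (11.5%). The share of all genes above these marks was not counted, and only 20.6% of all genes tested were called lower in ESC than in MEF. These counts therefore do not set the members apart from other genes. The part that feeder or other fibroblast-like cells played in the ESC values was not tested.

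Some muscle markers were also detected. The 10 skeletal muscle markers summed to 120 and 89.2 TPM in MEF, 57.9 and 50.9 on day 9 and 1186 and 1169 in ESC, and the 10 cardiac markers to between 9.76 and 34.7 TPM in all libraries. Of 10 skeletal muscle markers, among them the member Acta1, 5 in MEF, 8 on each induced day and 7 in ESC were under 1 TPM. Of 10 cardiac markers 8 or 9 were, and of 10 smooth muscle markers, 5 of them members, 3 in MEF, 5 on day 3, 7 on days 6 and 9 and 4 in ESC. Myod1 and Myf5 stayed below 0.11 TPM on average in every group and Myocd, the smooth muscle cofactor of Srf, below 0.45 TPM. Mylpf, a fast skeletal light chain gene, was at 76.5 ± 22 TPM in MEF, 46.8 ± 4.8 TPM on day 9 and 1171 ± 13 TPM in ESC. It thus made up most of the skeletal sum in these groups. Pax7, a factor of muscle stem cells, reached 6.69 ± 0.027 TPM on day 9. Tnni3, cardiac troponin I, was at 4.49 ± 1.3 TPM in MEF and 33.1 ± 0.66 TPM on day 6. Myl7, an atrial light chain, was at 5.24 ± 0.35 TPM in ESC. Smtn, the smoothelin of smooth muscle, was at 30.1 ± 4.3 TPM in MEF and 16.7 ± 1.1 TPM in ESC. These genes were named after their values were seen. Their part in the members' values was not tested.

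**Figure D4:**
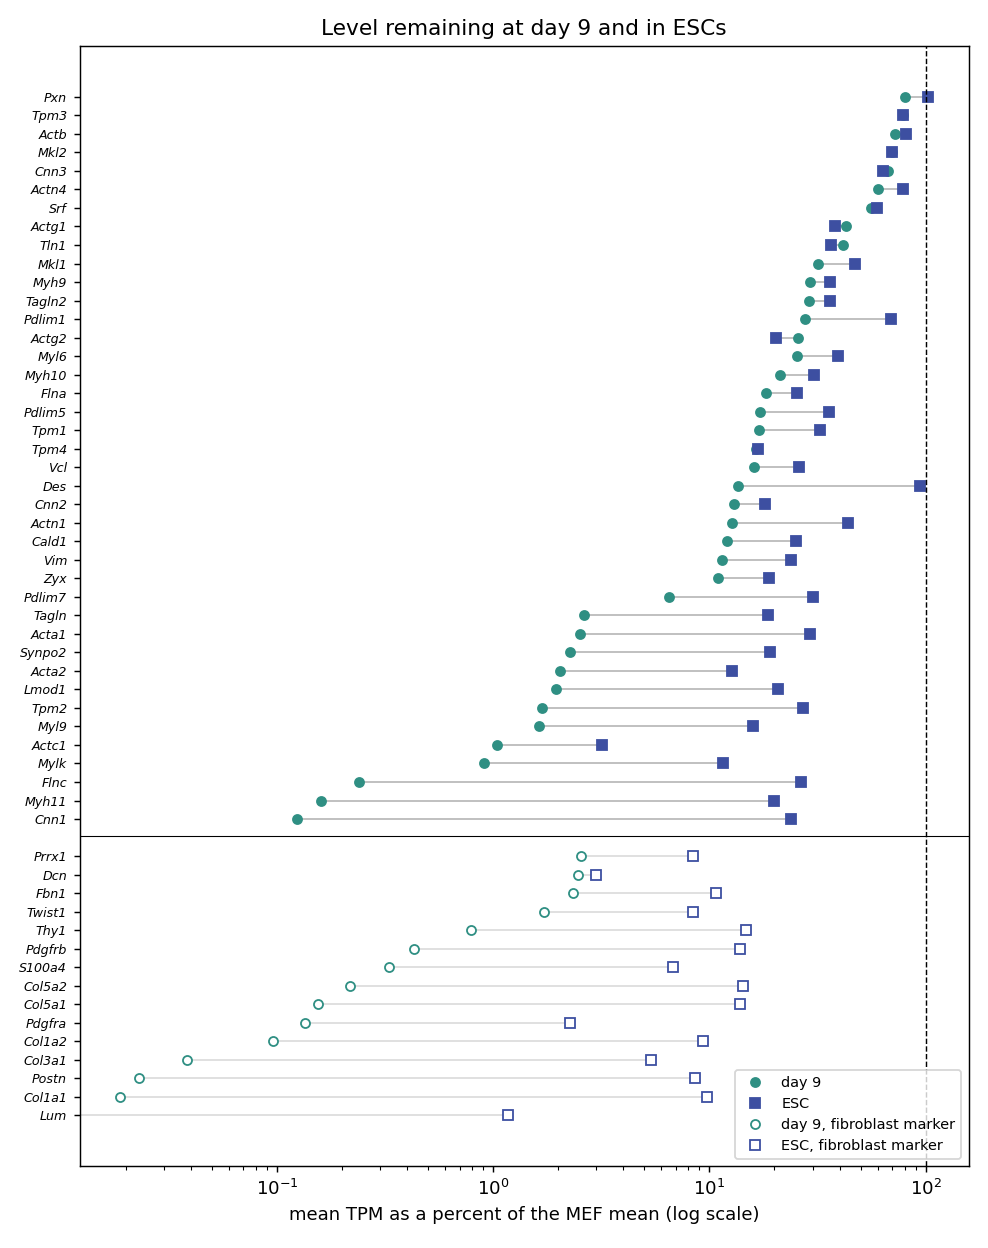
The mean TPM of each member on day 9 (circles) and in ESC (squares) is drawn as a percent of its MEF mean on a log axis, with the 15 fibroblast markers below as open symbols. Lum has no day 9 symbol because it was listed at 0. The ESC squares of 37 members lie to the right of 14.8%, the highest fibroblast marker.

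Cald1 and Tpm1 also changed which transcript their reads were assigned to, by the rule of at least 500 reads in every library and a difference of 20 percentage points between groups. Cald1-015, whose first base is at chromosome 6 position 34598565, took 82.8% ± 1.1 of Cald1 reads in MEF, 77.2% ± 0.40 on day 3, 52.9% ± 1.6 on day 6, 48.3% ± 2.9 on day 9 and 68.7% ± 0.73 in ESC. Cald1-001, which starts downstream at 34709442, took 11.5% ± 0.57, 17.7% ± 0.075, 41.0% ± 0.63, 45.7% ± 1.6 and 25.7% ± 0.59. In level, the upstream transcript went from 219 ± 1.8 TPM in MEF to 14.1 ± 0.93 TPM on day 9, while the downstream one went from 30.7 ± 1.7 to 13.5 ± 0.42 TPM. The transcript from the upstream start thus lost more of its level than the downstream one. Tpm1-016 took 33.7% ± 2.9 of Tpm1 reads in MEF, 50.4% ± 0.60 on day 3, 54.1% ± 0.099 on day 6 and 33.8% ± 0.97 on day 9, so its share was highest at the middle stages. Transcripts of Myh10 and Mkl1 also met the rule, but their replicates differed by up to 18.5 percentage points. The tables carry no measure of the uncertainty of assignment between transcripts, and these shares have no test.

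**Figure D5:**
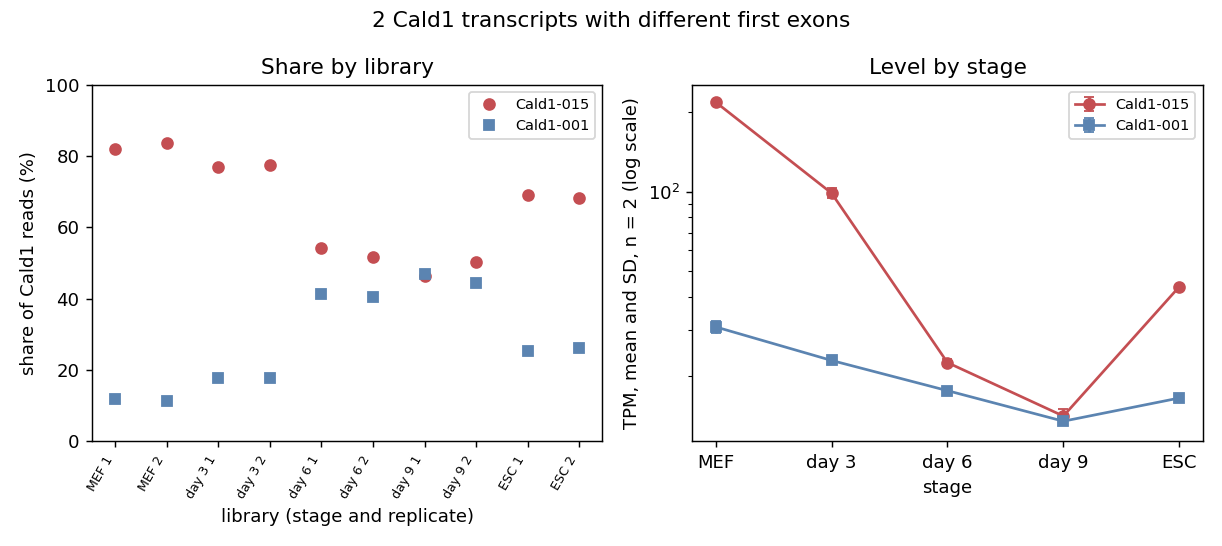
The left panel gives the percent of Cald1 reads assigned to 2 transcripts with different first exons in each library. The right panel gives their TPM per group on a log axis (mean, with SD over 2 libraries as bars). Cald1-015 exceeds 82% in both MEF libraries, and the 2 transcripts meet at 13.5 and 14.1 TPM on day 9.

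Other genes of the same pathways were counted by list. Of 14 measured immediate and matricellular targets of Srf or Yap, 12 fell and 0 rose between MEF and day 9, where 19.8% of all genes fell and 24.1% rose. They included Filip1l (36.3 ± 0.58 to 0.0958 ± 0.017 TPM, log2 fold change -8.50, SE 0.15) and Ankrd1, a stretch-responsive ankyrin repeat gene (19.9 ± 0.11 to 0.145 ± 0.0089 TPM, -7.01, SE 0.09). Ankrd1 was at 15.4 ± 0.015 TPM in ESC. Of 30 focal adhesion genes, 17 fell and 2 rose, among them the integrin Itga5 at -4.73 (SE 0.05), the paxillin relative Tgfb1i1 at -5.82 (SE 0.07) and Parvb, a parvin that binds actin at adhesions, at 2.81 (SE 0.06).

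Of 32 actin assembly and turnover genes 17 fell and 0 rose, against the same 19.8% and 24.1% of all genes. The filament-severing Gsn was at 170 ± 6.2 TPM in MEF, 213 ± 2.8 on day 3, 22.1 ± 0.66 on day 6 and 11.0 ± 0.81 on day 9, and the capping gene Capg fell by 3.82 (SE 0.08). The list of the myocardin family and Srf cofactors had 8 measured genes, of which 3 are members. Of the other 5, 2 fell and 0 rose. Fhl2, which is also on the list of Srf or Yap targets, stood at -6.50 (SE 0.10).

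The list of epithelial cytoskeleton genes went the other way, with 13 of 22 higher and 1 lower on day 9 than in MEF, against the same 24.1% and 19.8% of all genes. Cdh1, the cadherin of epithelial junctions, was at 0.0449 ± 0.014 TPM in MEF, 1.06 ± 0.095 on day 3, 8.93 ± 0.19 on day 6, 43.2 ± 1.1 on day 9 and 42.1 ± 0.84 in ESC. Myh14, the third nonmuscle myosin II heavy chain and not among the 40 members, rose by 6.15 on the log2 scale in estimated reads (SE 0.14, adjusted p = 1.4e-14, edgeR), and from 0.388 ± 0.076 to 4.07 ± 0.63 TPM. The 1 gene of that list that fell was Myo1d, at -3.14 (SE 0.06).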

How the data were processed

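Each library was quantified by the authors with Salmon 0.8.2 on mm10, per the submitters' processing notes; the annotation release is not given in the sources used here. Per the file headers, the deposited tables give an estimated count and a TPM value for each of 109617 transcripts. Effective lengths were identical in all 10 tables. Here both were summed by gene symbol field and gene identifier to 45706 genes, and estimated counts were rounded. Poly(A) libraries from a stranded kit were sequenced as single reads of 50 nt and carry a single batch label, per the labels.

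Genes were filtered with filterByExpr (minimum count 10, minimum total 15), scaled with TMM and fitted with the quasi-likelihood test of edgeR 4.0.16 in R 4.3.3, with 1 mean per group over all 10 libraries. Calls needed a log2 fold change of 1 or more and a Benjamini-Hochberg adjusted p under 0.05 over all 20165 genes. The SE of a change is the log2 fold change over the root of the F statistic. The common biological coefficient of variation was 3.75%. With 2 libraries against 2, an exact permutation test cannot go below p = 0.333, so levels and shares carry an SD and no test. Replicates differed by more than sampling noise (chi-square per degree of freedom 2.82 to 5.18), so each library counted as 1 sample.

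The members and lists were chosen with earlier results of these data known. Every member was named; from each other list reported here (1 more is not reported here), the 2 largest rises and 2 largest falls between MEF and day 9 were named among called genes at 20 CPM or more. Promoter sequences are from RefSeq (GRCm38.p6) and gene models from GENCODE M21. The alternatives were DESeq2 1.42.0, 2 other low-count filters, fits to the 2 groups alone, 2 other scalings, limma 3.58.1 on log2(TPM + 1) and log2(TPM + 0.1), a length offset, no fold minimum, CPM in place of TPM for the order of groups, estimated reads for shares within a family, a replicate block, and leaving out each library. Family shares from TPM without transcripts under 100 bases of effective length were added after seeing the data. The tests were tested on simulated counts. Same-numbered replicates did not deviate together (mean correlation 9.9e-05 over 20 pairs of libraries). With 2 libraries a group, the deviations of replicate 2 mirror those of replicate 1, so the 20 values are not independent. No pairing by number was seen, and the check cannot exclude one.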

Additional observations from a re-analysis of the deposited data

How the results depend on the processing

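Of 131 calls of a member in a comparison, 111 held in every alternative run that tested the member, 20 were lost in at least 1, and 0 changed direction. Some runs did not test every member, and a call could not be counted as lost there. With a filter of 10 CPM in 2 libraries, 39 members were tested, and 32 then fell from MEF to day 9. Without a fold minimum, 35 members were lower and 2 higher at day 3 than in MEF, 22 lower and 6 higher at day 9 than at day 6, and 29 higher and 7 lower in ESC than at day 9. The count higher at day 9 than at day 6 was 1, not 2, in the fit to only those 2 groups, with limma on log2(TPM + 1), with limma on log2(TPM + 0.1) and with the length offset, and it ranged from 1 to 2 when 1 library was left out (1 without MEF replicate 1, MEF replicate 2 or day 6 replicate 1), in each case because Actc1 was no longer tested or called. With library size scaling, the log2 fold change of Tpm3 was 0.17 and that of Pxn 0.18 from MEF to day 9, and that of Tpm3 was 0.04 from MEF to ESC, each against a small negative value. Without day 6 replicate 1, that of Cnn1 from day 6 to day 9 was 0.04, and without day 6 replicate 2 it was -0.59, at 8 to 16 reads a library. Library size scaling left 16 members lower at day 3 and 31 at day 9 relative to MEF, and limma on log2(TPM + 1), which compresses low values, left 21 lower from day 3 to day 6. The replicate block, taken from the replicate numbers, gave the same member counts in every comparison (for example 33 lower from MEF to day 9). Depth limits Acta1, Actc1, Cnn1, Myh11, Mylk, Flnc and Synpo2 at days 6 and 9. Shares within a family moved with the unit, estimated reads or TPM without the short transcripts, and the report gives the reads beside the TPM; without those transcripts the muscle actins went from 39.4% of actin TPM in MEF to 5.67% on day 9, and Cnn3 from 41.3% to 80.3% of calponin TPM. Day 9 was the lowest group for 28 members without those transcripts.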
